A study of Rattus norvegicus with 40 samples.

Results

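Dcn, Lum, Bgn, Vcan, Fbn1, Fn1, Eln, Postn, Sparc and Tnc code for the secreted matrix proteins of the liver that are not collagens, namely the glycoproteins and proteoglycans. They were taken by gene symbol, and all 10 were among the 17337 genes counted. RNA was sequenced from livers of male Fischer 344 rats that were 7 weeks old at the start and received diethylnitrosamine (DEN), a liver carcinogen dissolved in olive oil, as weekly intra-peritoneal injections of 50 mg/kg. Injections lasted 8 weeks in the 8-week group and 14 weeks in the 14-week group, and the 20-week group had 14 weeks of injections and then 6 weeks without DEN. Untreated rats of the same ages (no DEN) were the controls, with no statement that they received the oil. Each week had 4 DEN rats and 4 no DEN rats, so 24 rats in all. Non-tumoral liver (NT) was taken from every DEN rat, and 2 tumor nodules were also taken from each DEN rat at 14 and 20 weeks, which gives 40 libraries in 8 groups. All DEN groups carry the same agent, so an effect of DEN cannot be told apart from anything else that came with the injections, and 4 of the 12 DEN rats (2 at 8 weeks, 1 at 14 weeks and 1 at 20 weeks) carry numbers beginning with F while every other rat, each control included, carries an H.

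The small leucine-rich proteoglycans, the fibrillins, elastin and the matricellular proteins are laid down around collagen fibres and decide how fibrils pack, how elastic they are and how cells grip them. In an injured liver most of them are made by hepatic stellate cells that turn into myofibroblasts and by portal fibroblasts. Fibronectin stands apart because hepatocytes secrete its soluble plasma form into the blood, besides the insoluble form that mesenchymal cells build into the matrix.

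Libraries held 20528515 to 160622633 counted read pairs (median 30477421), and the deepest, NT of rat H26 at 20 weeks, was 4.08-fold larger than the next. Levels are given as TMM-scaled CPM (counts scaled to a common library size), a scale on which one gene can be compared between samples but different genes cannot, since gene length is not taken out. Albumin, the main transcript of hepatocytes, took 10.39 to 18.99% of the counted pairs of a library. In bulk tissue, fewer cells of a type and less RNA per cell cannot be told apart.

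The starts of 4 members are shown because they stand for an elastic fibre gene (Fbn1), for a matrix gene at high level in every library (Sparc) and for the pair that was almost silent in no DEN liver (Postn and Tnc). Each is the RefSeq promoter of the rat build GRCr8, 250 bases before to 50 after the annotated start, written on the strand of the gene. Fbn1 is at chr3:133203341-133203640 (minus strand), Sparc at chr10:40038767-40039066 (minus strand), Postn at chr2:140677811-140678110 (plus strand) and Tnc at chr5:82476082-82476381 (minus strand). Capitals mark letters that match a searched motif on either strand.
Fbn1: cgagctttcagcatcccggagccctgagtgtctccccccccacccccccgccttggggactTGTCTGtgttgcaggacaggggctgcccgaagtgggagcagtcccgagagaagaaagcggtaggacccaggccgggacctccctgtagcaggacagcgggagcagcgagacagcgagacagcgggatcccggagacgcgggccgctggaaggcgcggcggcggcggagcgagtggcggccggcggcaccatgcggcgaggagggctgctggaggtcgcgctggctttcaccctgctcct
Sparc: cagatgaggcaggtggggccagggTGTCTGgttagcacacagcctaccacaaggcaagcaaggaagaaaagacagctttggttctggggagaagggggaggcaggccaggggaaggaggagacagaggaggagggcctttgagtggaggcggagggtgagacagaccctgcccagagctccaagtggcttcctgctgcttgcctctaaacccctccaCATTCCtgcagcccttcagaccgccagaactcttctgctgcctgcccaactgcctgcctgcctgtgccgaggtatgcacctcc
Postn: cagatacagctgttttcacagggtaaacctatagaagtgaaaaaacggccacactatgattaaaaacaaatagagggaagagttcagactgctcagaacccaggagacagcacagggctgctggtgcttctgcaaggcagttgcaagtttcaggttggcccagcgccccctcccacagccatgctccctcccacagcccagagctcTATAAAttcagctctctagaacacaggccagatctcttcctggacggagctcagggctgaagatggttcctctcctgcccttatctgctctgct
Tnc: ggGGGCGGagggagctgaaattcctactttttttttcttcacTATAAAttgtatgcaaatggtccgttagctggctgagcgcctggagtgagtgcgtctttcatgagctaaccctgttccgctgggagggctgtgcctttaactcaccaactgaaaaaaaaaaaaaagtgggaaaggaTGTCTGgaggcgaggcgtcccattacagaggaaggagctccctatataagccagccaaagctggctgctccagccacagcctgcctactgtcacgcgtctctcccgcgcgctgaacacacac
The motifs searched on both strands were the TATA box TATAAA, the AP-1 site TGANTCA, the SMAD palindrome GTCTAGAC, the SMAD short site CAGACA, the GC box GGGCGG and the TEAD site GGAATG. None of these motifs contains another. A promoter was at hand for 6 of the 10 members (Lum, Vcan, Fbn1, Postn, Sparc and Tnc). Postn and Tnc held the letters of the TATA box, against 14.2% of all 33469 promoters of this length. The match in Postn lay shortly before the annotated start, while that in Tnc lay near the far upstream end of the window. Fbn1, Sparc and Tnc held the SMAD short site (21.1% of all promoters), Vcan and Tnc the GC box (33.1%), and Sparc the TEAD site (14.2%). The AP-1 site (7.33%) and the SMAD palindrome (0.197%) were not in the windows of these 6 genes. A match is a description of letters only.

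Levels in no DEN liver came first as the background. Between 8 and 20 weeks of the control series, 7 members could be tested, and none passed an adjusted p of at most 0.05 together with a log2 difference that reached 0.5 (0.374% of all genes did). That count was 0 in edgeR's quasi-likelihood test and 0 in DESeq2, and 1 member had an unadjusted p under 0.05. It was Eln, with a log2 difference of -0.77 (SE 0.25, unadjusted p = 0.00914, Benjamini-Hochberg adjusted p = 0.182). The same limits apply to nodules. In NT a gene is said to rise or fall only where its adjusted p was at most 0.01 and its log2 fold change reached 1. The NT limit reads the fold change of the methods as linear and the nodule limit reads theirs as log2.

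**Figure D1:**
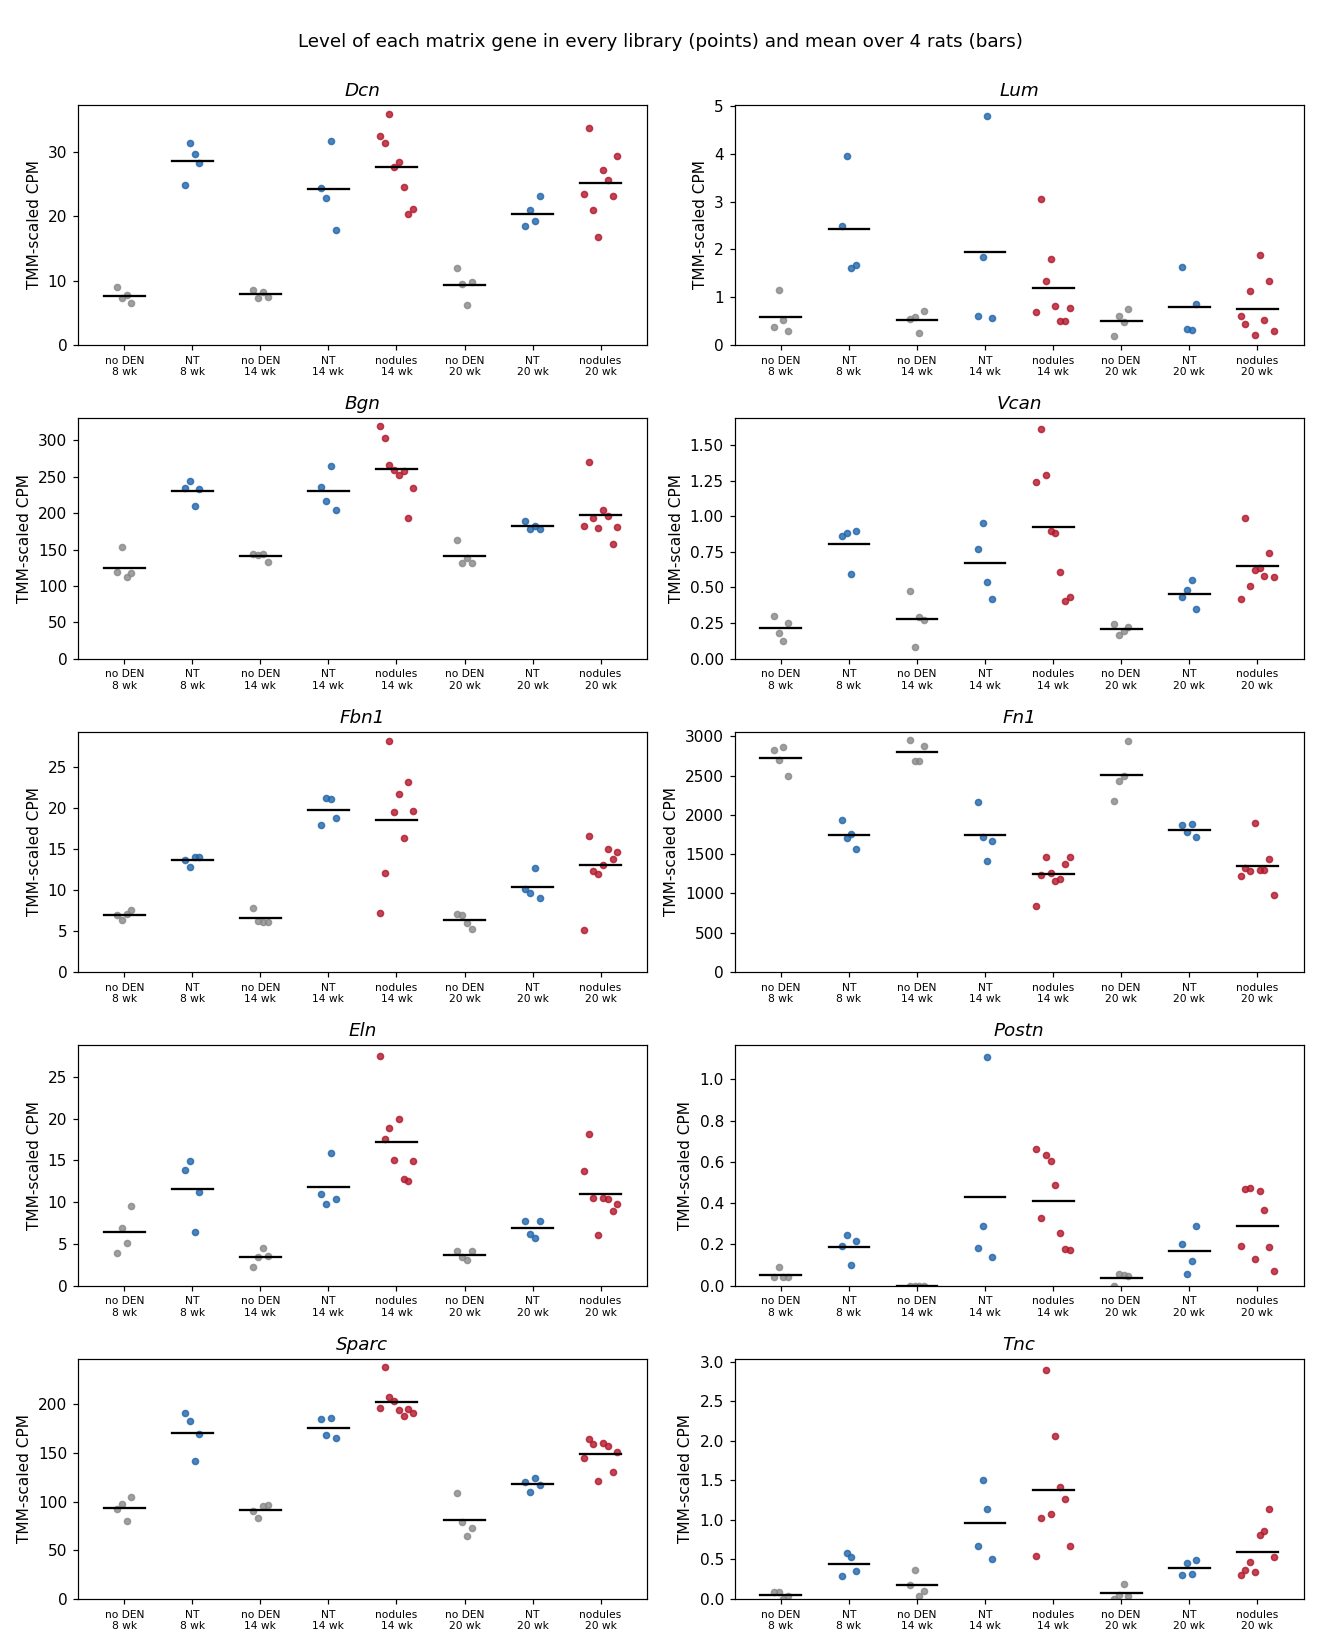
TMM-scaled CPM of each matrix gene (vertical axis, from 0) in the 8 groups, with 1 point per library and a bar at the mean over 4 rats. Dcn in NT sat between 24.8 and 31.4 CPM at 8 weeks, above all no DEN rats of that week (6.48 to 8.94), while Fn1 was the gene that lay lower in NT and nodules than in no DEN liver.

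Dcn was the member that rose in every comparison against no DEN. At 8 weeks 3 of the 8 members tested rose (Dcn, Lum and Vcan), beside 7.29% of all genes, and at 14 weeks 4 of 9 rose (Dcn, Fbn1, Eln and Tnc), beside 13.1% of all genes. When 6 weeks had passed without DEN, 1 of 8 rose (Dcn), beside 4.89%. These counts hold only members that passed a filter on low counts, and Lum, Vcan and Tnc passed it only with the DEN rats, since the no DEN rats alone were too low, so that their tests were not independent of the filter. Of the 6 members that passed in both groups (Dcn, Bgn, Fbn1, Fn1, Eln and Sparc), 1, 3 and 1 rose at the 3 weeks. With no filter on low genes, 4, 4 and 1 of all 10 members rose, beside 5.98%, 11.2% and 4.0% of all genes, Tnc being the added one at 8 weeks. Fn1 was the one member on the lower side. Its log2 fold change stayed under the limit of 1 in size at the 3 weeks, at which 0.620%, 2.10% and 0.333% of all genes fell.

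Counting only whether the 4 DEN and the 4 no DEN rats overlapped, the groups were apart in 5 of the 6 members that passed the filter in both groups at 8 weeks, and in 6 of 6 at 14 and at 20 weeks. Over all genes the groups were apart in 34.0%, 50.6% and 28.3%. Postn at all weeks and Tnc at 8 and 20 weeks had too few counts for the test and are described by their counts.

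Dcn codes for decorin, which coats collagen fibrils and binds transforming growth factor beta. At 8 weeks the no DEN rats H05 to H08 had 8.94, 7.25, 7.72 and 6.48 CPM, and the NT of F09, F10, H17 and H18 had 24.8, 31.4, 29.7 and 28.3 CPM. The lowest DEN rat was far above the highest control, and the log2 fold change was 1.92 (SE 0.12, adjusted p = 4.70e-06, edgeR quasi-likelihood test). At 14 weeks no DEN rats H09 to H12 had 8.53, 7.23, 8.19 and 7.45 CPM and the NT of F06, H21, H22 and H23 had 24.4, 22.9, 31.6 and 17.9 CPM, a log2 fold change of 1.64 (SE 0.16, adjusted p = 3.12e-05). Rat H22 was the highest and H23 the lowest of the DEN rats, and neither came near the controls. At 20 weeks no DEN rats H13 to H16 had 11.9, 9.44, 6.16 and 9.79 CPM and the NT of F03, H25, H26 and H28 had 18.5, 20.9, 19.2 and 23.1 CPM. The groups were again apart, at a log2 fold change of 1.14 (SE 0.16, adjusted p = 0.00111), which came to 0.97 without control rat H15, under the limit. Means over the rats went from 28.6 ± 2.83 to 24.2 ± 5.65 and 20.4 ± 2.03 CPM (SD, n = 4) in NT at the 3 weeks, against 7.60 ± 1.03, 7.85 ± 0.613 and 9.32 ± 2.37 CPM in no DEN liver. The difference between the DEN effects at 14 and 8 weeks was -0.28 (adjusted p = 0.405) and that between 20 and 14 weeks -0.50 (adjusted p = 0.311), so neither change of the effect with time passed the test.

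Dcn in nodules also stood above no DEN liver. The 8 nodules ran from 20.4 to 35.8 CPM with a median of 28 at 14 weeks and from 16.7 to 33.7 with a median of 24.5 at 20 weeks. All rats were above the controls, by a log2 fold change of 1.80 (SE 0.15, adjusted p = 3.35e-05) and 1.41 (SE 0.20, adjusted p = 3.85e-04). Both nodules of a rat were close, the median ratio of the higher to the lower being 1.10 at 14 weeks and 1.26 at 20 weeks.

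Bgn codes for biglycan, the nearest relative of decorin, which carries more glycosaminoglycan chains and also binds collagen. No DEN rats had 119, 153, 112 and 118 CPM at 8 weeks and NT had 235, 244, 210 and 233 CPM. The groups did not meet, but the log2 fold change of 0.88 (SE 0.10, adjusted p = 1.40e-04) was under the limit of 1. At 14 weeks the means were 141 ± 5.18 CPM in no DEN liver and 231 ± 26.4 in NT (log2 fold change 0.73, SE 0.09, adjusted p = 6.56e-05). At 20 weeks they were 141 ± 15.1 and 182 ± 5.45 CPM (log2 fold change 0.38, SE 0.08, adjusted p = 0.00864). All DEN rats were above all controls at both weeks by a smaller step than that of Dcn. In nodules Bgn rose at 14 weeks, to 194 to 320 CPM (log2 fold change 0.86, SE 0.12, adjusted p = 3.43e-04). At 20 weeks, 158 to 271 CPM gave 0.46 (SE 0.12, adjusted p = 0.0102), just under the nodule limit of 0.5 and over it without H13 or H28 (0.53 and 0.54). The second nodules alone gave 0.56 (adjusted p = 0.0164), and the lowest value over the alternatives was 0.33.

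Lum codes for lumican, which spaces collagen fibrils and is best known from the cornea. It was low and uneven. No DEN rats had 0.387, 1.14, 0.520 and 0.293 CPM at 8 weeks and NT had 2.48, 3.95, 1.61 and 1.68 CPM, all above the controls (log2 fold change 2.07, SE 0.42, adjusted p = 0.00413). That call rested on few rats, since the adjusted p was above 0.01 without F09, H05, H07 or H08 (0.0111 to 0.0154), and without both F rats the log2 fold change was 1.52 (adjusted p = 0.0263). At 14 weeks NT had 0.615, 1.83, 4.79 and 0.558 CPM, where H22 was high and F06 and H23 lay within the control range of 0.257 to 0.718 CPM. The log2 fold change of 1.89 (SE 0.76, adjusted p = 0.0633) became 0.95 without H22 (adjusted p = 0.129), while DESeq2 called it with all rats (adjusted p = 0.00552). At 20 weeks NT had 1.64, 0.340, 0.309 and 0.868 CPM against 0.196 to 0.746 in no DEN rats, which overlapped (log2 fold change 0.52, SE 0.62, adjusted p = 0.566). Nodules spread from 0.503 to 3.05 CPM at 14 weeks and from 0.208 to 1.88 at 20 weeks, with log2 fold changes of 1.16 (SE 0.48, adjusted p = 0.0685) and 0.51 (SE 0.40, adjusted p = 0.303). The 14-week value passed with DESeq2 (adjusted p = 0.0371) and without H22 or H23 (adjusted p = 0.0405 and 0.0356). At 20 weeks the first nodules alone gave 1.20 (adjusted p = 0.0411) and the second alone -0.47 (adjusted p = 0.391). The 2 nodules of a rat often differed, by a median ratio of 4.02 and up to 5.44 (H25) at 20 weeks.

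Vcan codes for versican, a large chondroitin sulphate proteoglycan that binds hyaluronan. At 8 weeks no DEN rats had 0.301, 0.176, 0.120 and 0.251 CPM and NT had 0.860, 0.881, 0.593 and 0.894 CPM. The groups were apart, and the rise of Vcan was 1.92 on the log2 scale (SE 0.32, adjusted p = 0.00121), a call that was lost without the F rats at nearly the same size (1.81, adjusted p = 0.0125). Counts were small, 3 to 7 pairs per control rat and 18 to 29 per DEN rat, and on CPM without TMM factors, which the filter used, no control reached its cutoff (0.332 CPM), so Vcan was tested only because of its level in DEN rats. At 14 weeks NT (0.418 to 0.953 CPM) overlapped no DEN liver (0.0826 to 0.474) at a log2 fold change of 1.25 (SE 0.42, adjusted p = 0.0263), which was called when all 8 groups shared one fit (1.22, adjusted p = 0.00874). At 20 weeks NT (0.347 to 0.549) stood above no DEN liver (0.166 to 0.245) at 1.16 (SE 0.32, adjusted p = 0.0220). Nodules rose at both weeks, with medians of 0.888 CPM (range 0.403 to 1.61) and 0.603 CPM (range 0.420 to 0.989) and log2 fold changes of 1.66 (SE 0.51, adjusted p = 0.0239) and 1.60 (SE 0.28, adjusted p = 0.00121). At 14 weeks the lowest rat was within the control range, and the call was lost without any 1 of H10, H11, H12 or H21 (adjusted p of 0.0508 to 0.0609). At 20 weeks Vcan had too few pairs to be tested with the first nodules alone, and the second alone gave 1.73 (adjusted p = 0.00384).

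Fbn1 codes for fibrillin-1, the backbone of the microfibrils on which elastin is deposited. No DEN rats had 6.92, 6.32, 7.04 and 7.53 CPM at 8 weeks and NT had 13.7, 12.8, 14.1 and 14.1 CPM. NT was close to uniform and apart from the controls, with a log2 fold change of 0.99 (SE 0.10, adjusted p = 6.13e-05), a hair under the limit of 1 and over it without the F rats (1.05). At 14 weeks no DEN rats had 7.84, 6.28, 6.17 and 6.12 CPM and NT had 18, 21.3, 21.2 and 18.8 CPM. Each 14-week NT was above each 8-week NT, and Fbn1 rose by 1.61 (SE 0.10, adjusted p = 2.44e-06). At 20 weeks no DEN rats had 7.05, 7.01, 6.02 and 5.31 CPM and NT had 10.1, 9.68, 12.7 and 9.0 CPM, still apart from the controls (log2 fold change 0.72, SE 0.14, adjusted p = 0.00433) but each below each 14-week NT.

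The interaction of treatment and week tested these steps directly. For Fbn1 the effect was larger at 14 than at 8 weeks by 0.62 on the log2 scale (SE 0.13, adjusted p = 0.0120) and smaller at 20 than at 14 weeks by a difference of -0.87 (SE 0.17, adjusted p = 0.0235). It was the 1 member of 9 past an adjusted p of 0.05 in each, beside 8.96% and 0.738% of all genes, so the first count is near the share of all genes. When all 8 groups shared one fit, both calls were lost at nearly the same size (0.59, adjusted p = 0.176, and -0.87, adjusted p = 0.120). The second was lost also without F03, H10, H11, H12, H13, H14, H21, H22 or H25 (adjusted p of 0.0514 to 0.0630), with the difference itself between -0.99 and -0.81 whichever rat was left out.

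In nodules Fbn1 rose at both weeks, by 1.47 (SE 0.25, adjusted p = 0.00128) and 1.02 (SE 0.13, adjusted p = 1.92e-04), but was uneven. At 14 weeks the 2 nodules of F06 had 7.20 and 12.1 CPM and the other 6 had 16.4 to 28.2. At 20 weeks F03 had 5.19 in one nodule and 16.6 in the other, a ratio of 3.20, and the other 6 had 12 to 15.0. So 1 nodule at each week lay within the range of the no DEN rats of its week or below it, and both came from F rats. These were libraries that stood apart in read assignment. The first nodule of F06 had the highest share of pairs without a feature (34.48%, next 28.16% in the second nodule of F06) and the fewest counted pairs of the 40 libraries, and the first nodule of F03 had the highest multimapped share (16.3%, next 13.24%). Without F06 the 14-week rise of Fbn1 was 1.71 (adjusted p = 1.28e-07) and without F03 the 20-week rise was 1.09 (adjusted p = 4.32e-04). The part of read assignment in the low values was not tested.

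Eln codes for elastin itself. At 8 weeks no DEN rats had 3.95, 6.94, 5.12 and 9.58 CPM and NT had 13.8, 14.9, 6.46 and 11.2 CPM. H17 fell among the controls, and the difference of 0.86 (SE 0.30, adjusted p = 0.0492) missed both limits. Without H17 it was 1.06 (adjusted p = 0.00931), and without the F rats 0.49 (adjusted p = 0.363). At 14 weeks no DEN rats had 2.26, 3.43, 4.44 and 3.49 CPM and NT had 11, 9.77, 15.9 and 10.4 CPM. Eln rose there by 1.81 (SE 0.22, adjusted p = 9.38e-05) with a wide gap between the groups. At 20 weeks no DEN liver had 3.03 to 4.16 CPM and NT 5.74 to 7.76, again apart (log2 fold change 0.89, SE 0.16, adjusted p = 0.00324). The effect was smaller at 20 than at 14 weeks by a difference of -0.91 (SE 0.27, adjusted p = 0.120), which DESeq2 called (-0.93, adjusted p = 0.0476). Nodules at 14 weeks had the highest mean Eln of the 8 groups, with 12.5 to 27.5 CPM over the libraries (log2 fold change 2.31 against no DEN, SE 0.22, adjusted p = 6.06e-05), and 6.11 to 18.2 CPM at 20 weeks (1.55, SE 0.23, adjusted p = 5.10e-04).

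Fn1 codes for fibronectin, the adhesive glycoprotein that integrins bind, and it went the opposite way from the others. At 8 weeks no DEN rats had 2820, 2700, 2860 and 2490 CPM and NT had 1930, 1710, 1750 and 1560 CPM. Every DEN rat was below every control, with a log2 fold change of -0.64 (SE 0.09, adjusted p = 5.65e-04). At 14 weeks the values were 2950, 2690, 2680 and 2880 CPM without DEN and 2160, 1720, 1410 and 1670 CPM in NT (-0.67, SE 0.12, adjusted p = 0.00101). At 20 weeks they were 2170, 2430, 2490 and 2940 against 1870, 1780, 1880 and 1720 CPM (-0.46, SE 0.10, adjusted p = 0.00907). The groups stayed apart at each week, by less than the limit of 1. In nodules Fn1 fell past the thresholds, to 842 to 1460 CPM at 14 weeks (-1.19, SE 0.11, adjusted p = 5.60e-05) and 982 to 1890 CPM at 20 weeks (-0.92, SE 0.16, adjusted p = 0.0010), beside 15.2% of all genes that fell in nodules at each week.

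The size of the Fn1 difference depended on the scaling, though not its sign. CPM without the TMM factors moved the median of all genes upwards by 0.21, 0.44 and 0.23 in the NT comparisons and 0.54 and 0.47 in the nodule comparisons (log2). Log2 ratios of mean Fn1 then went from -0.65 to -0.44, -0.69 to -0.26 and -0.47 to -0.24 in NT, and from -1.16 to -0.62 and -0.90 to -0.43 in nodules. No member changed sign against no DEN under this scaling. It shifted the genes of a comparison upwards together, so only a value just below 0 could have turned.

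Sparc, coding for the collagen-binding matricellular protein osteonectin, lay above no DEN liver in both tissues at each week they were compared. At 8 weeks no DEN rats had 92, 97.2, 80.5 and 105 CPM and NT had 191, 183, 142 and 169 CPM. At 14 weeks the means were 91.3 ± 6.10 CPM in no DEN liver and 176 ± 10.8 in NT, and at 20 weeks 81.3 ± 19.1 and 118 ± 5.84. All DEN rats were above all controls of their week, at log2 fold changes of 0.88 (SE 0.10, adjusted p = 1.81e-04), 0.97 (SE 0.07, adjusted p = 5.81e-06) and 0.54 (SE 0.13, adjusted p = 0.0134), each under the NT limit of 1. In nodules Sparc rose at both weeks, to 188 to 238 CPM (log2 fold change 1.12, SE 0.09, adjusted p = 2.10e-05) and 121 to 164 CPM (0.84, SE 0.15, adjusted p = 0.00122).

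Tnc codes for tenascin-C, a glycoprotein that appears in wounds and is scarce in resting tissue. At 14 weeks the no DEN rats had 5, 9, 1 and 3 read pairs (0.0367 to 0.372 CPM) and NT had 22, 57, 34 and 18 (0.502 to 1.51 CPM). The groups were apart and Tnc rose by 2.51 (SE 0.54, adjusted p = 0.00278), a call lost without control H12 (2.32, adjusted p = 0.0121), while without control H10 the value was 3.13. The filter used CPM without TMM factors, on which none of the controls reached its cutoff (0.307 CPM), so Tnc was tested there only because of its level in DEN rats. At 8 weeks the counts were 2, 2, 0 and 1 without DEN and 9, 19, 16 and 10 in NT, and at 20 weeks 0, 1, 4 and 1 against 9, 16, 52 and 17, where the 52 came from the deepest library and is 0.321 CPM. The DEN rats had more pairs than any control in both. With no filter on low genes the log2 fold changes were 2.94 (adjusted p = 0.00204) at 8 weeks and 2.34 (adjusted p = 0.0149) at 20 weeks, the first past the limits. Nodules had 0.545 to 2.89 CPM at 14 weeks (log2 fold change 3.00, SE 0.55, adjusted p = 0.00180) and 0.306 to 1.14 CPM at 20 weeks (2.93, SE 0.66, adjusted p = 0.00437), again tested through the DEN rats. The 20-week controls held 6 pairs in all, and leaving out 1 rat gave 2.52 to 4.04 there (4.04 without H15) and 2.65 to 3.63 at 14 weeks (3.63 without H10), so the size of the rise is uncertain. With either nodule alone Tnc had too few pairs to be tested at 20 weeks.

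Postn codes for periostin, which helps to crosslink collagen. It was at 0 pairs in all 4 no DEN rats at 14 weeks, which allows 3 pairs over the group, or 0.0277 CPM. NT of the same week had 6, 11, 33 and 5 pairs and the nodules 6 to 25, both 0.404 CPM when pooled. That is 14.6-fold over the control limit. H22 stood out in NT with 1.11 CPM against 0.139 to 0.291 in the other 3 rats, and held 33 of the 55 pairs. Without H22, NT pooled to 22 pairs or 0.207 CPM, 7.47-fold over the limit, and nodules to 0.421 CPM, 15.2-fold over it. At 8 weeks counts were 1, 2, 1 and 1 without DEN and 6, 8, 3 and 6 in NT. At 20 weeks they were 0, 1, 1 and 1 without DEN, 6, 2, 19 and 10 in NT, and 3 to 18 in nodules. Each DEN rat had more pairs than each control of its week, but libraries differ in depth. On CPM the lowest NT was close to the highest control at 8 weeks (0.0988 in H17, 0.0878 in H06). It was closer still at 20 weeks (0.0566 in H25, 0.0552 in H14). The limit of 3 pairs covers counting error of the 14-week controls only. The pooled DEN values are point estimates without an error of their own, so the folds over the limit are not lower bounds.

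**Figure D2:**
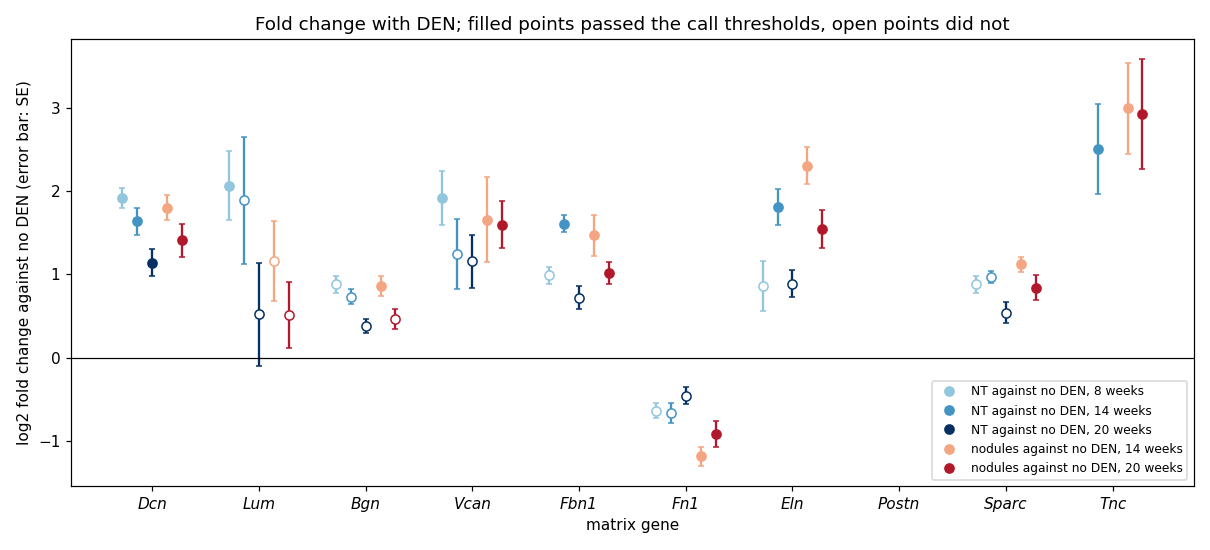
Log2 fold change against no DEN (vertical axis, error bars SE) for each matrix gene in the 3 NT and the 2 nodule comparisons, filled where both limits were passed. Dcn is filled in all 5, Fn1 lies below 0 throughout and is filled in the nodules (-1.19 and -0.92), and Postn has no point because its counts were too low to test.

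In nodules against no DEN liver, 7 of 9 members tested rose at 14 weeks (Dcn, Bgn, Vcan, Fbn1, Eln, Sparc and Tnc) beside 23.9% of all genes, and 6 of 9 at 20 weeks (the same without Bgn) beside 23.6%. Lum, Vcan and Tnc again passed the filter only with the DEN rats. Of the 6 members that passed in both groups, 5 and 4 rose, and rats of the nodule and no DEN groups did not overlap in 6 of 6 at each week, against 51.4% and 48.9% of all genes. With no filter, 8 and 7 of all 10 rose, Postn being added at both weeks, beside 22% and 20.9% of all genes. The NT and nodule comparisons of a week share their no DEN rats, so their values are set side by side only. Between 20 and 14 weeks none of the members' nodule effects differed at an adjusted p of 0.05 (edgeR and DESeq2 both 0, beside 0.0862% of all genes), and 3 had an unadjusted p under 0.05 (Bgn -0.41, Eln -0.77 and Postn, whose fitted value is no bound).

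Nodules were also set against the NT of the same rats. At 14 weeks none of the 10 members, and none of all genes (0%), passed the limits in edgeR without pairing. There Fn1 (-0.49, SE 0.16, unadjusted p = 0.0138) and Eln (0.53, SE 0.20, unadjusted p = 0.0240) were the 2 with an unadjusted p under 0.05. Both had an adjusted p of 0.404. DESeq2 called 0 members as well, and so did edgeR with the rat as replicate block (Fn1 -0.48, adjusted p = 0.186, and Eln 0.53, adjusted p = 0.193). The shares of all genes called in these fits are not given here, so these counts of 0 stand without a baseline. Rats did not overlap in 1 member, Sparc (0.18, SE 0.09, adjusted p = 0.450), against 11.3% of all genes. Among the others Dcn differed by 0.18, Bgn 0.16, Vcan 0.44, Tnc 0.52, Fbn1 -0.11, Postn -0.05 and Lum -0.70 on the log2 scale. Without rat H22 Lum became 0.44 and Postn 1.02, while the other members kept their sign. Without the TMM factors the median of all genes moved by 0.10, and the sign for Fbn1, which was near 0, turned with it.

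At 20 weeks the differences between nodules and NT were again uncalled in edgeR without pairing (0 of 10 members, 0% of all genes), and 4 members had an unadjusted p under 0.05. They were Sparc (0.31, SE 0.09, adjusted p = 0.114), Fn1 (-0.45, SE 0.14, adjusted p = 0.123), Eln (0.67, SE 0.21, adjusted p = 0.127) and Fbn1 (0.31, SE 0.13, adjusted p = 0.178). Both tissues came from the same animal, and with the rat as replicate block Eln was called (0.63, adjusted p = 0.00608), as it was by DESeq2 (0.67, adjusted p = 0.0448). All genes called were then 14.7% with the block and 7.63% in DESeq2. In the blocked fit Sparc (0.31, adjusted p = 0.00985), Fn1 (-0.47, adjusted p = 0.0125) and Fbn1 (0.32, adjusted p = 0.0279) passed the p limit and not the size limit of 0.5. Rats did not overlap in 4 members, with Vcan, Eln and Sparc higher in nodules and Fn1 lower, against 10.9% of all genes. Dcn differed by 0.28, Bgn 0.09, Vcan 0.45, Tnc 0.60, Postn 0.86 and Lum -0.01. Without the TMM factors the median of all genes moved by 0.24, and the sign for Lum, which was near 0, turned with it.

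**Figure D3:**
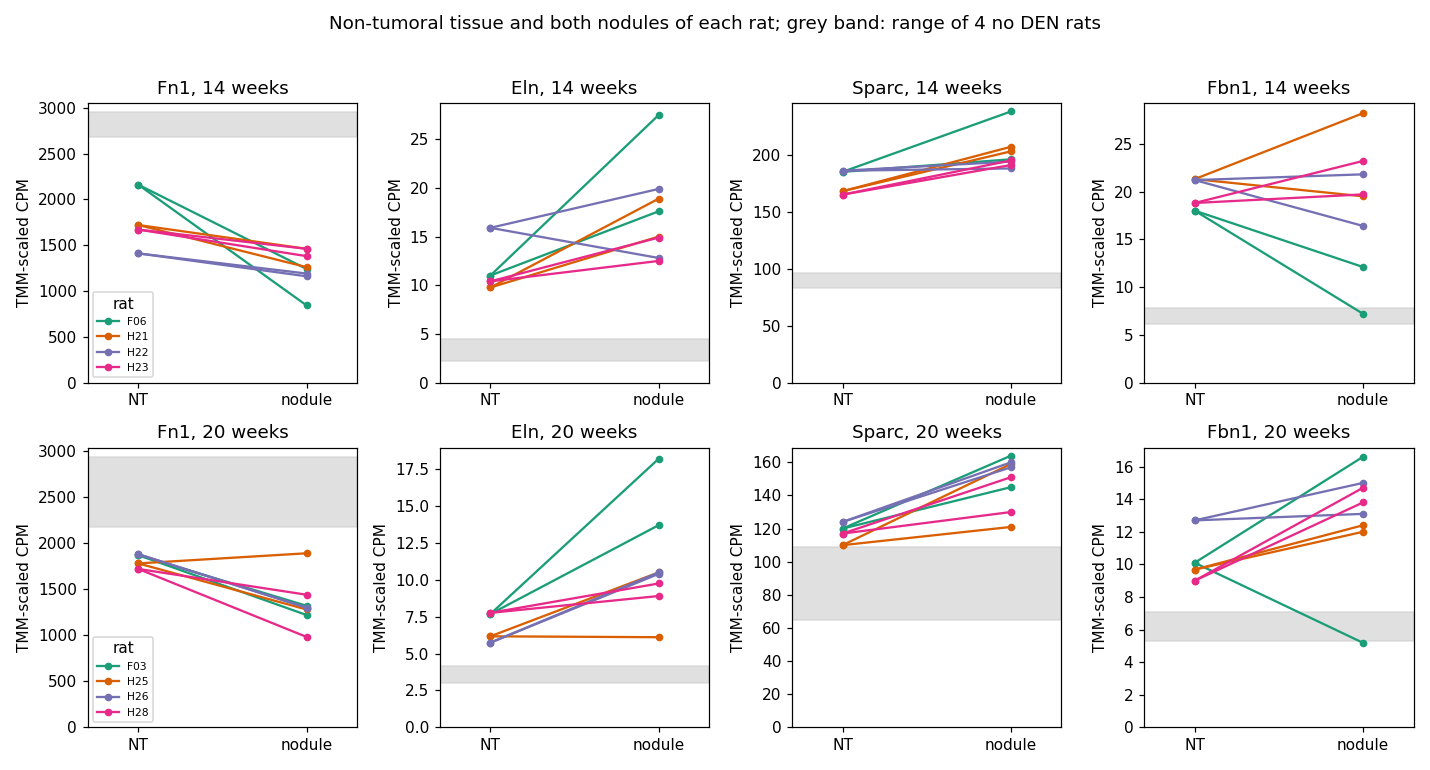
TMM-scaled CPM of Fn1, Eln, Sparc and Fbn1 in NT and in both nodules of each DEN rat (1 colour per rat, lines join tissues of a rat) at 14 and 20 weeks, with a grey band for the range of the 4 no DEN rats. Fn1 drops in 7 of 8 nodules at 20 weeks, Sparc climbs in every nodule of that week, and the F06 and F03 nodules at 7.20 and 5.19 CPM of Fbn1 lie in or below the grey band.

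Correlations between members differed in size and sign after group means were taken out. Postn, Tnc, Vcan and Lum rest on few pairs, and no correlation was redone with a rat left out. The part of counting noise and of single rats in these values was not tested. Over the 32 values per gene (a tissue of a rat, with its nodules added together, from shared rats and libraries), Pearson's r of log2 CPM was 0.925 for Bgn and Sparc, 0.908 for Eln and Sparc and 0.907 for Dcn and Bgn, and between -0.413 and -0.882 for Fn1 with each of the others. The step between no DEN and DEN groups enters these values. After the group means were taken out, Lum and Postn had 0.768 (0.668 before), Eln and Sparc 0.579 and Bgn and Sparc 0.567, while Fbn1 had -0.345 with Bgn and -0.336 with Eln, and Fn1 had -0.432 with Eln. In NT of rat H22 at 14 weeks, Dcn, Bgn, Lum, Eln, Sparc and Postn were at their highest for the group and Fn1 at its lowest. Fbn1 and Eln parted in the first nodule of F06, with the lowest Fbn1 (7.20 CPM) and the highest Eln (27.5 CPM) of the 8, and with the lowest Fn1 (842 CPM). That library was also the one with the highest share of pairs without a feature (34.48%), whose part in this was not tested.

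**Figure D4:**
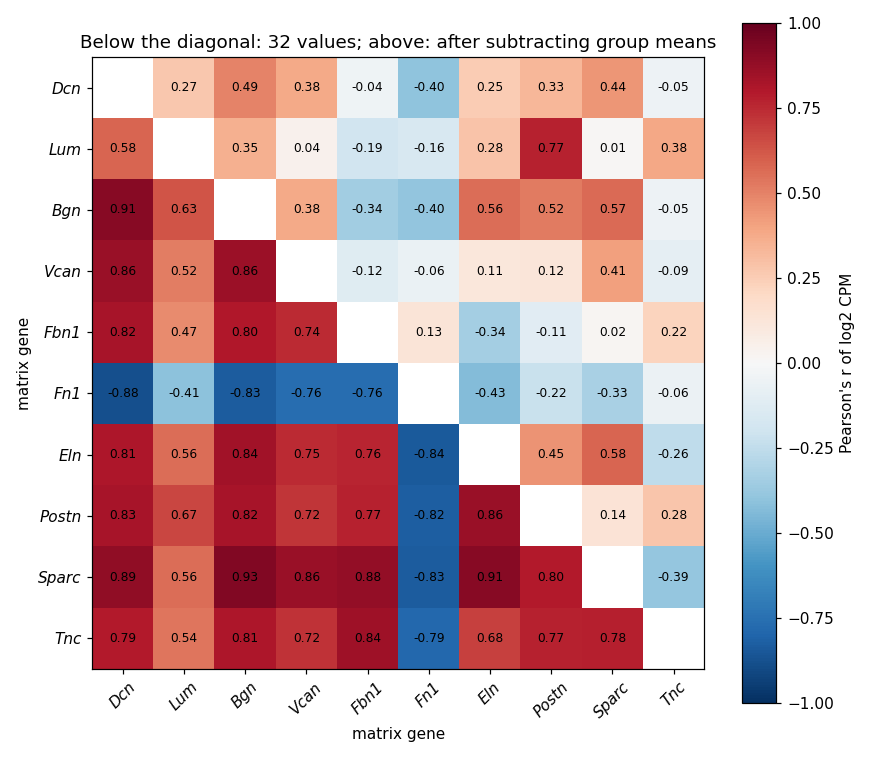
Pearson's r of log2 CPM between each pair of matrix genes, over 32 values (below the diagonal) and after the mean of each group was subtracted (above it), on a colour scale from -1 to 1. Fn1 is negative with all other members below the diagonal, and Lum with Postn (0.77) is the strongest pair above it.

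The genes with the most similar pattern over the same 32 values, out of 11596, were Rhbg, Gpm6b and Clec7a for Dcn (r of 0.945, 0.943 and 0.942), Igfbp7, Sgca and Mxra8 for Bgn (0.959, 0.952 and 0.952), and Cpz, Fam110a and Flna for Sparc (0.960, 0.954 and 0.954). For Fbn1 they were Fstl1, Col4a1 and Kif11 (0.950, 0.950 and 0.946) and for Eln Tgfb1i1, Megf6 and Procr (0.938, 0.934 and 0.918). Fn1 went with St6gal1, Znrf2 and Atrn (0.975, 0.969 and 0.966). Tnc had Adamts2, Col4a1 and Suv39h1 (0.921, 0.915 and 0.895), Postn had Plaur, Grik5 and Tgfb1i1 (0.908, 0.895 and 0.895), and Vcan had Gpm6b, Gem and Hlx (0.896, 0.895 and 0.888). Lum was the member least like any other gene, with Aoc3, Frzb and Nhej1 at 0.762, 0.755 and 0.707.

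Other genes of the same matrix were counted from lists of their families, 118 of 135 listed genes being in the table. In NT 22 of 86, 31 of 88 and 14 of 82 tested rose at the 3 weeks in turn, beside 7.29%, 13.1% and 4.89% of all genes, with median log2 fold changes of 0.65, 0.79 and 0.43 against -0.01, 0.02 and 0.02 for all genes tested. In nodules 52 of 94 rose and 11 fell at 14 weeks, beside 23.9% of all genes that rose and 15.2% that fell, and 48 of 90 rose and 10 fell at 20 weeks, beside 23.6% and 15.2%, with a median of 0.73 at both against 0.00 and 0.01 for all genes. Of the genes tested, 14, 16 and 12 in NT and 20 and 19 in nodules passed the filter only with the DEN rats. With no filter, 23, 32 and 15 of the 118 rose in NT and 52 and 50 in nodules.

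The counts of each list are given in 2 ways, over the genes that reached the cutoff of the filter in every rat of both groups, and with no filter over all genes of the list that were counted. The first stand beside 7.29%, 13.1% and 4.89% of all genes that rose in NT at the 3 weeks and 23.9% and 23.6% in nodules, the second beside 5.98%, 11.2%, 4.0%, 22% and 20.9%. Elastic fibre and crosslinking genes rose in 8 of 12, 7 of 12 and 1 of 11 in NT and in 10 of 13 and 10 of 12 in nodules, and with no filter in 8, 9, 2, 13 and 12 of 18. Ltbp2, which binds fibrillin microfibrils, rose by 1.06, 3.15 and 2.55 in NT and by 4.07 and 4.14 in nodules (log2). Fbln1, an elastin-binding fibulin, rose by 1.53, 2.82 and 2.07 and then 3.20 and 3.76. Lox, the enzyme that starts crosslinks in collagen and elastin, rose by 2.95 in NT at 14 weeks and by 2.96 and 3.54 in nodules, but 0 of the 4 no DEN rats reached the cutoff, so that it was tested only through the DEN rats, and in NT at 8 and 20 weeks it was not tested.

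Matricellular and adhesive glycoproteins beside the members rose in 5 of 18, 6 of 18 and 1 of 18 in NT and in 11 of 19 and 8 of 18 in nodules, and with no filter in 8, 10, 5, 16 and 13 of 29. Among the largest were the adhesion modulator Thbs1 (1.44, 2.37, 1.63, then 2.44 and 2.63) and Fndc1 (2.18, 3.00, 2.05, then 3.41 and 3.43), for which 1 of the 4 no DEN rats reached the cutoff at each week. Matrix receptors rose in 4 of 15 in NT at each week and in 6 and 7 of 15 in nodules, and with no filter in 4, 6, 4, 9 and 10 of 19. The collagen receptor Ddr1 rose by 1.57, 5.03 and 4.03 in NT and by 5.61 and 6.02 in nodules, and the hyaluronan receptor Cd44 by 1.61, 2.40 and 1.66 in NT and by 2.73 and 2.66 in nodules. Ltbp2, Thbs1, Ddr1 and Cd44 reached the cutoff in all rats of both groups in all 5 comparisons, and Fbln1 in 4 of them (in NT at 20 weeks 3 of the 4 controls did). For glycosaminoglycan chain synthesis the counts were 2 of 16, 3 of 15, 3 of 16, 6 of 16 and 7 of 16 in the same order, and 2, 4, 3, 7 and 10 of 23 with no filter, with the chondroitin polymerising factor Chpf at 1.13, 1.84, 1.71, 1.65 and 2.24. Other proteoglycans and hyaluronan link proteins rose in 0 of 4, 0 of 5, 0 of 4, 1 of 5 and 1 of 4, and in 1, 1, 1, 2 and 3 of 13 with no filter. Of other small leucine-rich proteoglycans 2 of 11 reached the cutoff in both groups and 0 of these rose, against 0, 1, 0, 1 and 0 of 11 with no filter. ADAMTS proteases that cut proteoglycans rose in 0 of 4, 1 of 4, 0 of 4, 4 of 4 and 2 of 4, and in 0, 1, 0, 4 and 2 of 5 with no filter.

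The 11 and 10 listed genes that fell in nodules stood beside 15.2% of all genes that fell, and 3 of them that fell at both weeks are described here, named after their values were seen. Vtn, coding for vitronectin, a plasma adhesive glycoprotein made by hepatocytes, had 5640 ± 254, 5360 ± 203 and 4800 ± 398 CPM in no DEN liver at the 3 weeks and 4590 ± 550, 2860 ± 597 and 3870 ± 572 CPM in NT. In nodules it fell to 2340 ± 401 and 2410 ± 887 CPM (log2 fold changes of -1.22 and -1.02, adjusted p = 8.99e-05 and 0.00728). The cell surface proteoglycan Sdc2 fell by 1.25 and 0.96 in nodules and the fibronectin receptor subunit Itga5 by 0.69 and 1.26 on the log2 scale.

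Markers of other cells moved in the same comparisons, and their part in these results was not tested. They are counted in the same 2 ways, beside the same shares of all genes that rose, while 0.620%, 2.10% and 0.333% of all genes fell in NT and 15.2% in nodules at each week. Activated stellate cell and myofibroblast markers rose in 4 of 7, 4 of 7 and 0 of 7 in NT and in 5 of 7 in nodules at both weeks, and with no filter in 3, 5, 0, 6 and 6 of 9. Their summed CPM over 9 genes was 170 to 223, 176 to 222 and 150 to 197 in no DEN liver, 332 to 461, 364 to 470 and 229 to 250 in NT, and 419 to 498 and 268 to 344 in nodules, so that all DEN rats were above all controls of their week. Lox was counted in this list and among the elastic fibre genes.

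Sinusoidal endothelial markers, all 5 of which reached the cutoff in both groups, rose in 0, 2 and 0 of 5 in NT and in 4 of 5 in nodules, with or without the filter. Their sums were 83.7 to 145, 88.5 to 140 and 56.1 to 153 CPM in no DEN liver, 172 to 185, 174 to 225 and 162 to 218 in NT and 176 to 216 and 161 to 227 in nodules, apart from the controls at every week. Portal fibroblast markers (Eln is one of them) rose in 0 of 3, 1 of 2 and 0 of 2 in NT and in 2 of 2 in nodules, and with no filter in 1, 3, 2, 5 and 4 of 6. Their sums were 5.93 to 12.4, 4.30 to 6.76 and 4.65 to 7.25 CPM without DEN, 9.85 to 19.2, 15.6 to 23.2 and 9.26 to 12.7 in NT and 21.5 to 28.4 and 12.1 to 24.4 in nodules, overlapping the controls in NT at 8 weeks and apart in the other 4 comparisons. Quiescent stellate cell markers rose in 1, 1 and 0 of 7 in NT and in 1 of 7 in nodules, the 1 being Des each time, and in the same numbers of 8 with no filter.

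Hepatocyte markers had summed medians of 324000, 318000 and 307000 CPM in no DEN liver, 283000, 216000 and 254000 in NT and 187000 and 204000 in nodules. The sums of all DEN rats were below those of all controls in NT at 8 and 14 weeks and in nodules at both weeks. In NT at 20 weeks they overlapped. All 10 reached the cutoff in both groups, and 7 fell and 1 rose in nodules at each week, while in NT 1 fell at 14 weeks. Cholangiocyte markers rose in 0 of 3, 2 of 3 and 1 of 3 in NT and in 3 of 4 and 2 of 3 in nodules, where 1 fell at 20 weeks, and with no filter in 0, 4, 3, 4 and 4 of 5. Their sums went from 43.9 to 56.2 CPM over all no DEN rats to 52.8 to 62.1, 60.5 to 108 and 54.2 to 78.9 in NT and 88.2 to 136 and 89 to 206 in nodules. Macrophage markers rose in 0 of 7 in NT and 1 of 7 in nodules, with sums that overlapped in all 5 comparisons. Of lymphocyte markers 1 of 6 reached the cutoff in both groups and did not rise, and with no filter 2, 0, 0, 3 and 1 of 6 rose. Vascular smooth muscle markers rose in 0 of 3, 0 of 3 and 0 of 2 in NT and 0 of 3 and 0 of 2 in nodules, and with no filter in 0, 0, 0, 0 and 1 of 5. Mesothelial markers rose in at least 1 of 3 genes in NT at 20 weeks and in nodules, and their count with no filter is not given here. Summed levels of all DEN rats were above those of all controls for lymphocyte markers in NT at 8 and 20 weeks and in nodules at 14 weeks, for mesothelial markers in NT at 20 weeks and in nodules, and for vascular smooth muscle and quiescent stellate cell markers in NT at 8 weeks.

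Skeletal muscle markers had few read pairs, as Postn and Tnc did, and were also higher in DEN rats. Their sums over 4 genes were 0.0878 to 0.200, 0.0342 to 0.0826 and 0.0980 to 0.245 CPM in no DEN liver, 0.527 to 0.679, 0.307 to 0.738 and 0.346 to 0.934 in NT and 0.483 to 1.38 and 0.410 to 1.25 in nodules. Every DEN rat was above every control of its week. None of the 4 reached the cutoff in both groups, and with no filter 1, 2, 0, 2 and 1 of 4 rose. Of the defining muscle genes, Ckm had 0 to 2 pairs and Myh4 0 to 1 in these tissues, Acta1 had 0 to 1 pair in no DEN liver and 1 to 80 in DEN rats, and Tnnt3 1 to 5 and 6 to 41.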

How the data were processed

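Total RNA of liver tissue was made into stranded TruSeq mRNA libraries and sequenced as 75 bp read pairs. Per the labels and the submitters' processing notes, the authors aligned reads with STAR 2.7.1a to the rat build rn6, counted read pairs per gene with HTSeq and tested with DESeq2 1.22.2. The deposited counts are raw whole numbers, one table per library, and rows naming no gene (21.49 to 34.48% of pairs without a feature, 0.82 to 1.56% ambiguous, 7.96 to 16.3% multimapped) stayed out of library sizes and tests.

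Members were read by symbol. Members and gene lists were chosen with earlier results of these data known. Counts of both nodules of a rat were summed, since the rat is the replicate. Genes passing filterByExpr (about 10 pairs in as many libraries as a group holds, in whichever group) were tested with edgeR 4.0.16 (R 4.3.3, TMM scaling, robust glmQLFit and glmQLFTest) on the 2 groups compared, or on 4 groups for the interaction of treatment and week, with Benjamini-Hochberg adjustment over all genes tested. Limits were an adjusted p of 0.01 and a log2 fold change of 1 for NT, 0.05 and 0.5 for nodules and for no DEN rats of different weeks, and 0.05 alone for interactions. The methods word both fold limits as relative fold changes, and the one for NT was read as linear, the one for tumors as log2. All members are named in every comparison, and of each wider list at most the 3 largest called genes whose rats did not overlap. The test was tried on simulated data first. CPM were divided by summed counts scaled by TMM factors, and log2 CPM used a prior count of 2.

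NT and nodules of a rat come from the same animal, and their deviations from group means correlated at r of 0.368 to 0.543 in all 8 rats (11596 genes), so the paired fit with the rat as replicate block is given where it changes a call. Alternatives were DESeq2 1.42.0, RLE scaling, no filter, one fit of all groups, each rat left out, no F rats, and each nodule alone. No 2 libraries of a group agreed within counting noise (the lowest chi-square over its degrees of freedom was 12.9).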

Additional observations from a re-analysis of the deposited data

Results flagged for a closer look

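Of 79 groups of libraries looked at, 7 had one library far from the rest by Dixon's test. Chance flags about 1 in 20 groups of independent libraries. The 8 libraries of a nodule group are 2 nodules from each of 4 rats, so that rate does not hold for them. The groups of different members also share their libraries. In nodules at 20 weeks the second nodule of F03 had 271 CPM of Bgn where the next had 205, and the first nodule of F03 had 5.19 CPM of Fbn1 where the next lowest had 12. In nodules at 14 weeks the second nodule of F06 had 238 CPM of Sparc against 207 in the next. So 3 of the 7 were nodules of F rats, of which there are 2 with nodules. In NT, H17 had 0.593 CPM of Vcan at 8 weeks (18 pairs, next 0.860) and H22 had 1.11 CPM of Postn at 14 weeks (33 pairs, next 0.291). Among no DEN rats, H09 had 7.84 CPM of Fbn1 at 14 weeks (next 6.28) and H06 had 0.0878 CPM of Postn at 8 weeks, which is 2 pairs against 1 in each other rat.

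For Fbn1 the effect of DEN in NT differed between weeks in the interaction test, by 0.62 on the log2 scale from 8 to 14 weeks and by -0.87 from 14 to 20 weeks (edgeR, adjusted p = 0.0120 and 0.0235). In the fit of all groups both calls were lost at nearly the same size (0.59 and -0.87, adjusted p = 0.176 and 0.120).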

How the results depend on the processing

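Among the refitted log2 fold changes of members, 1427 kept their direction and their side of the limits, 24 lost and 17 gained a call, and 54 turned sign, all of the last among differences that were not called. Counts of members called in the 5 comparisons against no DEN stayed within 1.5 times in every alternative, but not always with the same members. All members called were kept in 7, 12 and 12 of 13 alternatives in NT at the 3 weeks and in 11 and 13 of 15 in nodules. In NT at 20 weeks, leaving out H15 lost Dcn and called Tnc (3.44), which was not tested with all rats, and at 8 weeks Lum was lost in 6 alternatives, the fit of all groups among them. In nodules at 20 weeks Tnc with either nodule alone and Vcan with nodule 1 alone had too few pairs to be tested. The fit of all groups added Vcan and Postn in NT at 14 weeks. Nodules against NT at 20 weeks went from 0 to 1 member (Eln) with DESeq2 and to 1 with the rat as replicate block, and the block changed no other call of a member. The interaction from 8 to 14 weeks went from 1 (Fbn1) to 0 with all groups in one fit, and that from 14 to 20 weeks from 1 to 2 with DESeq2 (Eln added), to 0 with all groups in one fit, and to 0 to 1 when a rat was left out. The cause of these changes was not tested.

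Without the F rats, Lum in NT at 20 weeks became -0.11, Fbn1 in nodules against NT at 14 weeks 0.07, Lum in nodules against NT at 20 weeks 0.77, Lum from 8 to 14 weeks 0.66, Vcan from 14 to 20 weeks 0.02 in NT and 0.15 in nodules. With nodule 1 alone, Fbn1 and Postn in nodules against NT at 14 weeks were 0.02 and 0.21, Lum and Bgn at 20 weeks 0.72 and -0.0018, and the Lum nodule effect between weeks 0.59. With nodule 2 alone, Lum in nodules against no DEN at 20 weeks was -0.47, and the nodule effects of Vcan and Tnc between weeks 0.11 and 0.16. With the replicate block, Postn at 14 weeks was 0.09 and Lum at 20 weeks 0.19, and with all groups in one fit the latter was 0.03. When each rat was left out, Lum ranged from -0.11 to 0.88 in NT at 20 weeks, -1.31 to 0.44 and -0.62 to 0.77 in nodules against NT, -0.42 to 0.36 in no DEN liver and -1.14 to 0.15 from 8 to 14 weeks. Fbn1 and Postn in nodules against NT at 14 weeks ranged from -0.22 to 0.07 and from -0.49 to 1.02. From 8 to 14 weeks Fn1 ranged from -0.15 to 0.02, Tnc from -0.82 to 0.16 and Sparc from -0.02 to 0.15, and from 14 to 20 weeks Vcan from -0.44 to 0.20 and Tnc from -0.80 to 0.93. The nodule effects of Tnc and Vcan between weeks ranged from -0.70 to 1.05 and from -0.44 to 0.24. Postn, Tnc, Vcan and Lum rest on few pairs, so their folds are the least certain.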
